A study of Mus musculus with 6 samples.

Results

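The genes described here are 9 homeobox transcription factor genes that are used as a self-renewal program of blood progenitors and leukemia cells: Hoxa3, Hoxa5, Hoxa7, Hoxa9, Hoxa10, Hoxb4, Meis1, Pbx2 and Pbx3. They were given by name, and all 9 were found among the 38924 rows of the expression table. RNA was sequenced from 6 libraries of mouse bone marrow cells in 3 groups of 2. The leukemia group carried Evi1-GFP and was taken 6 months after transplantation, the preleukemia group carried Evi1-GFP and was taken at 4 weeks, and the mock group carried GFP alone and was taken at 4 weeks. All mice were C57BL/6, all had been transplanted with transduced bone marrow, and all cells had been sorted as GFP+ Lin- c-kit+. That sort keeps transduced cells that lack markers of mature blood lineages and bear c-kit, the stem cell factor receptor of immature cells. Neither the vector's promoter nor the number of mice behind a library is stated, and replicate libraries may or may not stem from different animals. The p-values therefore rest on library-to-library spread, part of which may be technical. There was no GFP group at 6 months, and leukemia and time after transplantation therefore cannot be told apart.

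Hox genes lie in 4 clusters and encode DNA-binding proteins. In the marrow the genes of the Hoxa cluster are most active in stem cells and early progenitors, and their level falls as cells mature. Hox proteins bind DNA together with 2 kinds of partner from the TALE class of homeobox proteins, the Pbx proteins and the Meis proteins. Forced expression of Hoxa9 with Meis1 transforms mouse marrow, and forced Hoxb4 expands stem cells. Evi1, encoded at the Mecom locus, is a zinc finger transcription factor of stem cells that causes myeloid leukemia when it is overexpressed.

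Values are RPKM (reads scaled by transcript length and by the total of the library), so that levels of different genes can be compared. The steps between low values gave library totals of 16922992 to 21641740 reads, and the read numbers below were recovered from them. The labels held in the data: Mecom was at 61.7 and 71.5 RPKM in leukemia, 78.0 and 80.1 RPKM in preleukemia and 0.774 and 0.805 RPKM in mock, where vector-derived reads and reads from the mouse gene itself cannot be told apart. Kit, which encodes c-kit, was at 49.3 and 46.8 RPKM in leukemia, 60.03 and 56.9 RPKM in preleukemia and 69.2 and 57.7 RPKM in mock. Levels of neutrophil and erythroid marker genes were not alike across the libraries. Summed over 9 neutrophil genes the level was 410 and 714 RPKM in leukemia, 3876 and 8345 RPKM in preleukemia and 12.7 and 18.0 RPKM in mock. Summed over 8 erythroid genes it was 3.01 and 13.1 RPKM in leukemia, 166 and 109 RPKM in preleukemia and 234 and 99.4 RPKM in mock. S100a8 and S100a9 made up most of the neutrophil sum in leukemia and preleukemia. In leukemia the means of Mmp8 and Ly6g were below mock, and those of the other neutrophil genes above. Car1 made up most of the erythroid sum in mock. In preleukemia the means of Hba-a1 (26.3 RPKM) and Hbb-b1 (22.4 RPKM) were above mock (5.46 and 2.34 RPKM). Means of the other erythroid genes were below mock. In bulk RNA fewer cells of a type and less RNA per cell cannot be told apart. The part of these markers in the results below was not tested.

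The data show 3 patterns among the 9 genes. The 5 Hoxa genes and Pbx3 were lowest in leukemia, intermediate in preleukemia and highest in mock, with no overlap between the groups. Meis1 had the same order, but its leukemia libraries stood far apart. Hoxb4 and Pbx2 were highest in preleukemia. The share of all genes with such an order, or with groups of 2 libraries that do not overlap, was not counted. The plot of levels by library shows each value.

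**Figure D1:**
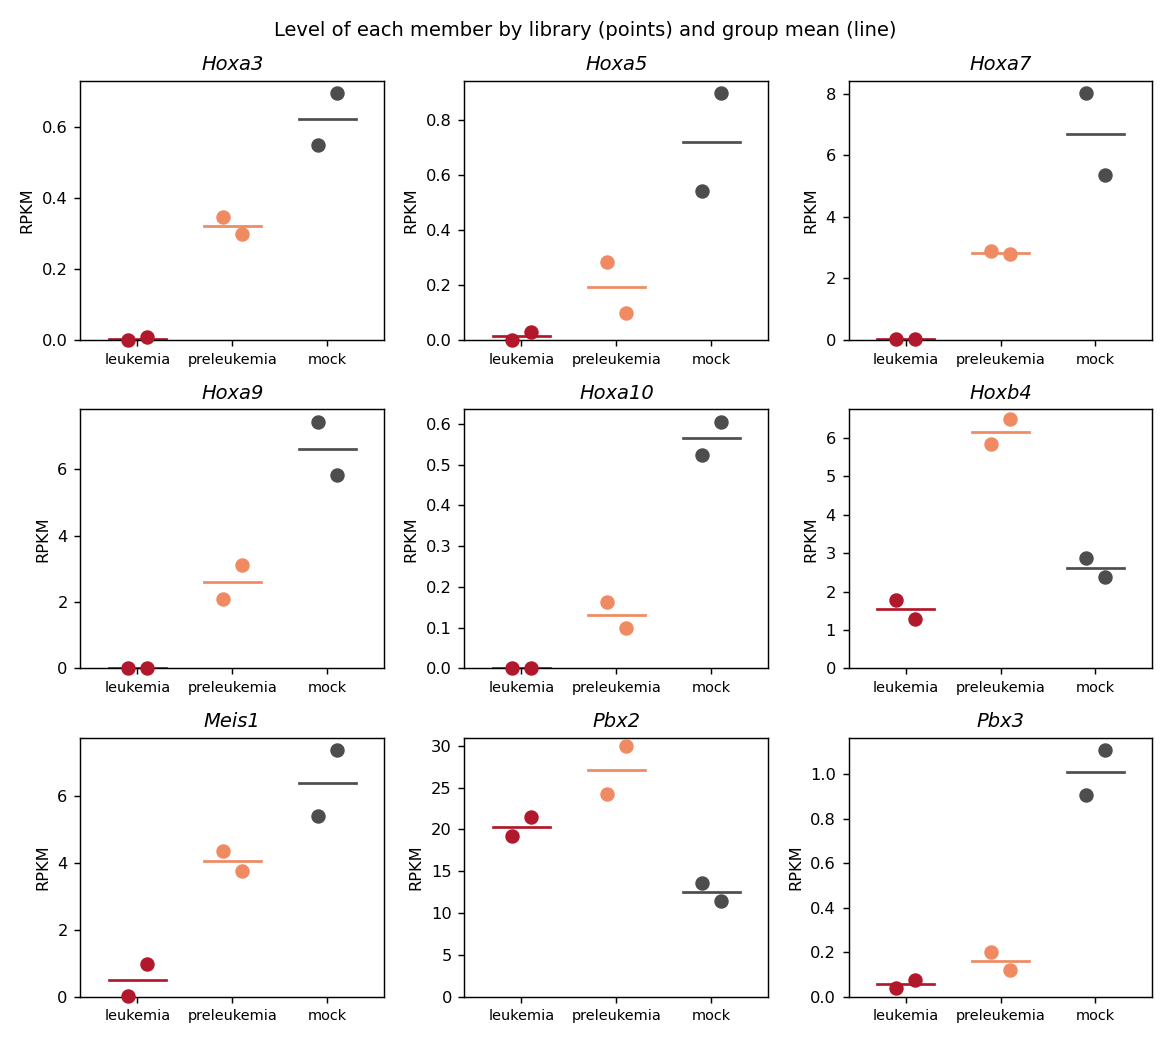
RPKM (vertical axes, each from 0 with its own range) of the 9 genes in the 2 leukemia, 2 preleukemia and 2 mock libraries, with points for libraries and lines for group means. Hoxa9 sits at 0 in both leukemia libraries and at 7.44 and 5.82 in the mock libraries, while Hoxb4 and Pbx2 are highest in the 2 preleukemia libraries.

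The bases ahead of the transcription start are shown for Hoxa9 and Hoxa10, which were at 0 in both leukemia libraries, and for Hoxb4, which was not. Each line gives the 250 bases before the start, 5′ to 3′ on the gene's strand, as RefSeq gives it on GRCm38.p6. For Hoxa10, which has 2 starts in that table, the outer one is shown. Hoxa9 is at chr6:52227371-52227620 (minus strand), Hoxa10 at chr6:52240855-52241104 (minus strand) and Hoxb4 at chr11:96318017-96318266 (plus strand). No exon of GENCODE M21 lies in these 3 stretches. The stretch of Hoxa9 lies inside the GENCODE model of that gene (chr6:52223100-52231089), ahead of an inner start, whereas those of Hoxa10 and Hoxb4 lie ahead of their whole models.
Hoxa9: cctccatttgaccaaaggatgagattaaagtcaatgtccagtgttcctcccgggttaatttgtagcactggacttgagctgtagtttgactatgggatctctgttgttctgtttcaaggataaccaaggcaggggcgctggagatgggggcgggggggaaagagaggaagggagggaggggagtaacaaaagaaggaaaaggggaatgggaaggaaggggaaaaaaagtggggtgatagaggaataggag
Hoxa10: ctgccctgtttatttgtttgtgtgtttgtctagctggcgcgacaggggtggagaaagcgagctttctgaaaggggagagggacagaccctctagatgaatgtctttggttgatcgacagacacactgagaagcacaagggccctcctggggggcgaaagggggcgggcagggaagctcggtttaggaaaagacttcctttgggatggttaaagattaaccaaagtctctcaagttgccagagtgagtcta
Hoxb4: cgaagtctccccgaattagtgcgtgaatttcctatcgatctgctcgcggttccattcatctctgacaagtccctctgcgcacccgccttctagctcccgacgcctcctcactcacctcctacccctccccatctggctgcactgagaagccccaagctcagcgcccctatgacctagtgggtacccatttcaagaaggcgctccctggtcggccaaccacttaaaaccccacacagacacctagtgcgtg

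Windows of 300 bases, 250 before to 50 after a start, were at hand for 8 of the 9 genes (9 windows), and Pbx3 had none. GC content over the window was 49.7% for Hoxa9, 54.3% for the outer start of Hoxa10 and 58.0% for Hoxb4, against a median of 52.7% over all 32851 windows of 27025 genes. The window of Hoxa9 held 4 CpG dinucleotides, that of Hoxa10 12 and that of Hoxb4 14, against a median of 7. Short motifs were searched on both strands. The Pbx-Hox motif TGATNNAT was in 0 of the 9 windows and in 8.85% of all windows. The Meis motif TGACAG was in 1 of the 9, the window of Hoxa3, 13 bases before the start on the other strand, and in 19.2% of all. The Evi1 motifs were in 0 of the 9 windows, GACAAGATA being in 0.119% and GAAGATGAG in 0.399% of all. In the 3 sequences above no letter is in capitals because none of these motifs occurs there.

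Hoxa9 and Hoxa7 had the largest falls of the 9 genes in leukemia against mock on the log2 scale. Hoxa9, the Hox protein whose forced expression with Meis1 transforms marrow, was at 0 and 0 RPKM in leukemia, 2.09 and 3.12 RPKM in preleukemia and 7.44 and 5.82 RPKM in mock. Those values stand for 0 and 0 reads in leukemia, 124 and 237 reads in preleukemia and 564 and 413 reads in mock. Neither leukemia library held a read of Hoxa9, and the 3 groups did not overlap. With 3 reads in a library as the floor, the leukemia level was at least 152-fold lower than the mock mean and at least 59.9-fold lower than the preleukemia mean. On the log2(RPKM + 1) scale, which understates the change of low genes, Hoxa9 fell by 2.92 ± 0.19 (SE, n = 2 per group) in leukemia against mock (limma, adjusted p = 0.000326). It fell by 1.83 ± 0.19 in leukemia against preleukemia (limma, adjusted p = 0.00264). It fell by 1.09 ± 0.19 in preleukemia against mock (limma, adjusted p = 0.0115), a ratio of mean RPKM 2.55 times lower. Leaving out preleukemia library 1 ended the last call (fell by 0.88, limma adjusted p = 0.0700). GENCODE M21 places Hoxa9 at chr6:52223100-52231089 on the minus strand of GRCm38, where the gene for the microRNA Mir196b overlaps it.

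Hoxa7, the neighbour of Hoxa9 in the cluster and like it active in early progenitors, was at 0.0165 and 0.0177 RPKM in leukemia, 2.88 and 2.78 RPKM in preleukemia and 8.01 and 5.37 RPKM in mock. Each leukemia library held 1 read of Hoxa7, against 140 and 173 reads in preleukemia and 498 and 312 reads in mock. The groups did not overlap, and the preleukemia libraries lay closer together than the mock libraries. Leukemia was 391 times lower than mock by mean RPKM, with a 95% counting interval of 109 to 3256 that covers counting error only. Hoxa7 fell by 2.90 ± 0.19 in leukemia against mock (limma, adjusted p = 0.000326) and by 1.91 ± 0.19 in leukemia against preleukemia (limma, adjusted p = 0.00236). In preleukemia against mock it fell by 0.98 ± 0.19 (limma, adjusted p = 0.0153), or 2.37 times by mean RPKM. Leaving out preleukemia library 1 (adjusted p = 0.0799) or library 2 (adjusted p = 0.105) ended that call, as did testing every gene with a read (adjusted p = 0.0594).

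Hoxa10, a posterior Hoxa gene whose overproduction expands myeloid progenitors in mice, was an order of magnitude lower than Hoxa9 in mock. It was at 0 and 0 RPKM in leukemia, 0.163 and 0.0989 RPKM in preleukemia and 0.523 and 0.605 RPKM in mock, from 0 and 0, 9 and 7, and 37 and 40 reads in the same order. The groups did not overlap, and both leukemia libraries were at 0. Leukemia was at least 12.1-fold lower than mock and preleukemia was 4.32 times lower than mock, by mean RPKM. Hoxa10 never reached the 1 RPKM needed for the main test. In a test of the 14462 genes at 0.1 RPKM or more in 2 libraries it fell by 0.65 ± 0.09 in leukemia against mock (limma, adjusted p = 0.00565) and by 0.47 ± 0.09 in preleukemia against mock (limma, adjusted p = 0.0207). The difference between leukemia and preleukemia, -0.18 ± 0.09, did not pass (limma, adjusted p = 0.243). It passed at the same filter with voom on recovered reads, which has another log2 scale (-4.04, limma, adjusted p = 0.0329). The preleukemia call against mock was lost without preleukemia library 1 (adjusted p = 0.0804), preleukemia library 2 (adjusted p = 0.134), leukemia library 1 (adjusted p = 0.0556) or leukemia library 2 (adjusted p = 0.0557).

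The anterior and middle Hoxa genes Hoxa3 and Hoxa5 were low in every group. Hoxa3, best known for its part in the development of the pharyngeal arches, was at 0 and 0.00744 RPKM in leukemia, 0.346 and 0.297 RPKM in preleukemia and 0.548 and 0.695 RPKM in mock. Hoxa5, which acts in lung and skeletal patterning and in the choice between blood lineages, was at 0 and 0.0271 RPKM in leukemia, 0.283 and 0.0985 RPKM in preleukemia and 0.542 and 0.896 RPKM in mock. For each gene the leukemia libraries held 0 and 1 reads, and no group overlapped another. By mean RPKM the leukemia level of Hoxa3 was 167 times lower than mock, with a counting interval of 30.5 to 6834, and that of Hoxa5 was 53.1 times lower, with an interval of 9.38 to 2188. At the filter of 0.1 RPKM, Hoxa3 fell by 0.69 ± 0.10 (limma, adjusted p = 0.00576) and Hoxa5 by 0.75 ± 0.14 (limma, adjusted p = 0.0139) in leukemia against mock. Without leukemia library 1 the adjusted p was 0.0516 for Hoxa3 and 0.0876 for Hoxa5, and without leukemia library 2 it was 0.0502 and 0.0832. Hoxa3 also fell by 0.40 ± 0.10 in leukemia against preleukemia (limma, adjusted p = 0.0431), a call lost without either leukemia library or either preleukemia library (adjusted p of 0.164 to 0.213), after trimmed-mean scaling (0.0526) and without a mean trend (0.0542). The GENCODE model of Hoxa3 (chr6:52169062-52213336, minus strand) contains Hoxa4, Hoxa5 and Hoxa6 and several antisense transcripts, and the counting is not stated to use strand, so reads of these genes cannot be told apart where they overlap.

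Across the whole Hoxa cluster, 11 genes in the table, the reads summed to 5 and 6 in leukemia, 331 and 479 in preleukemia and 1227 and 932 in mock. Of the leukemia reads, 4 and 1 belonged to Hoxa13, at the far end of the cluster. Hoxa2, a hindbrain patterning gene, had 2 reads over both leukemia libraries and 27 over both mock libraries, 12.7 times lower by mean RPKM with a counting interval of 3.30 to 114. Hoxa6 had 0 reads over the leukemia libraries and 23 over the mock libraries, at least 3.66-fold lower. Hoxa4, Hoxa11 and Hoxa13 did not exceed 0.0870 RPKM in any library, which is at or near the level of a few reads.

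**Figure D2:**
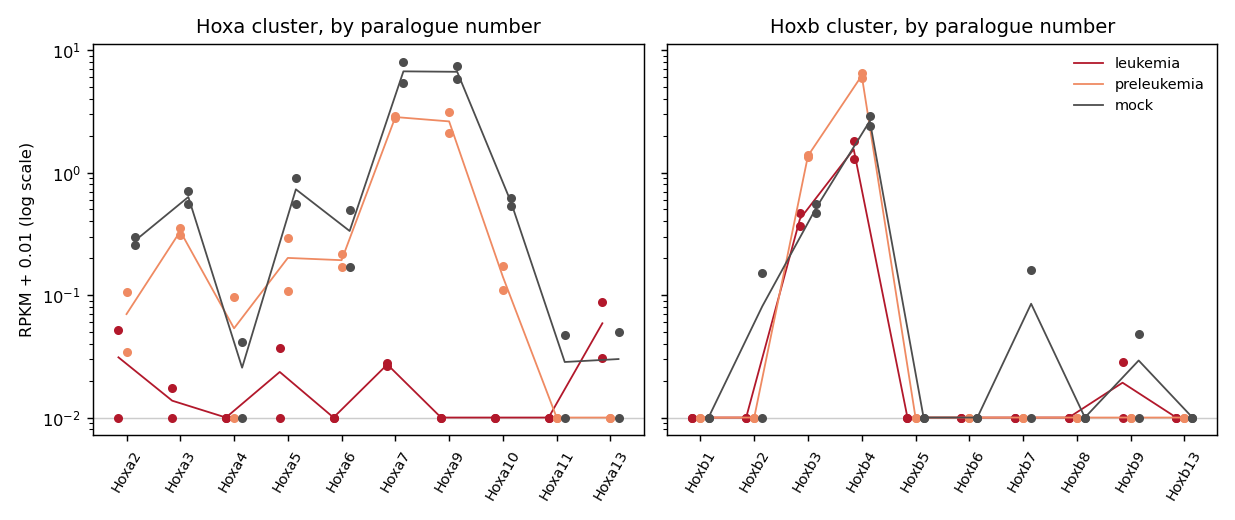
RPKM + 0.01 on a log axis for the genes of the Hoxa (left) and Hoxb (right) clusters, in the order of their paralogue numbers, with points for libraries and lines through the group means; 0 RPKM falls on the grey line. The leukemia line lies below the preleukemia and mock lines from Hoxa2 to Hoxa10, whereas at Hoxb3 and Hoxb4 the preleukemia line is on top.

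Genes on either side of the cluster stayed well above 0 in leukemia (they were chosen for description after their values were seen). Skap2, an adaptor protein gene on one flank, was at 44.3 and 46.9 RPKM in leukemia, 57.9 and 65.7 RPKM in preleukemia and 38.4 and 39.1 RPKM in mock. It rose by 0.66 ± 0.10 in preleukemia against mock (limma, adjusted p = 0.00743) and fell by 0.43 ± 0.10 in leukemia against preleukemia (limma, adjusted p = 0.0303). Hibadh, a valine breakdown enzyme on the other flank, was at 18.0 and 16.6 RPKM in leukemia, 20.2 and 20.2 RPKM in preleukemia and 21.2 and 19.1 RPKM in mock. Its difference did not pass in any comparison. In the same leukemia libraries each Hoxa gene had at most 4 reads.

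Hoxb4, the Hox gene best known for expanding stem cells when forced, took another course. It was at 1.79 and 1.29 RPKM in leukemia, 5.85 and 6.48 RPKM in preleukemia and 2.88 and 2.37 RPKM in mock, from 156 and 105, 411 and 582, and 258 and 199 reads. Both preleukemia libraries were above all others, and the leukemia libraries were below the mock libraries. Hoxb4 rose by 0.99 ± 0.16 in preleukemia against mock (limma, adjusted p = 0.00851), a ratio of 2.35 in mean RPKM. It fell by 1.503 ± 0.16 in leukemia against preleukemia (limma, adjusted p = 0.00264), or 4.01 times. The difference between leukemia and mock, -0.52 ± 0.16, did not pass (limma, adjusted p = 0.0536), but passed with a pseudocount of 0.1 (adjusted p = 0.0476) or 0.5 (adjusted p = 0.0498), without a mean trend (adjusted p = 0.0460) and without mock library 2 (adjusted p = 0.0443). The preleukemia rise was lost without preleukemia library 2 (0.92, adjusted p = 0.0809). GENCODE M21 places Hoxb4 at chr11:96318267-96321638 on the plus strand, where no other GENCODE model overlaps it. The length recovered for the counted model, 4149 bases, is above the 2566 bases of GENCODE exons and longer than that stretch. Whether the counted model overlaps a neighbouring gene is therefore not known.

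Hoxb3, the next gene of the cluster, had the same order at a lower level: 0.459 and 0.356 RPKM in leukemia, 1.34 and 1.38 RPKM in preleukemia and 0.462 and 0.543 RPKM in mock. It rose by 0.65 ± 0.15 in preleukemia against mock (limma, adjusted p = 0.0271) and fell by 0.75 ± 0.15 in leukemia against preleukemia (limma, adjusted p = 0.0181). The rise was lost without preleukemia library 1 (adjusted p = 0.115), preleukemia library 2 (0.152), leukemia library 1 (0.0528) or leukemia library 2 (0.0533), and the fall did not pass without any 1 of those libraries (0.0868 to 0.117) or after quantile normalization (0.0860). Its difference in leukemia against mock, -0.09 ± 0.15, did not pass (limma, adjusted p = 0.671) and was positive, 0.10, after quantile normalization. Of the 38 Hox genes in the table, Hoxa7, Hoxa9, Hoxb3 and Hoxb4 were the 4 that reached 1 RPKM in a library, and 19 were at 0 in every library. Over the 9 Hoxc genes 0 to 9 reads were found per library, and over 8 Hoxd genes none.

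Meis1, the TALE partner that stabilises Hox complexes on DNA and speeds Hoxa9 leukemia, was at 0.0251 and 0.983 RPKM in leukemia, 4.35 and 3.76 RPKM in preleukemia and 5.41 and 7.37 RPKM in mock. Both leukemia libraries were below all others, but leukemia library 2 held 183 reads of Meis1 and library 1 held 5, a level 39.1 times higher in library 2. By mean RPKM leukemia was 12.7 times lower than mock. Meis1 fell by 2.36 ± 0.31 in leukemia against mock (limma, adjusted p = 0.00321), by 1.88 without leukemia library 1 and by 2.84 without leukemia library 2. It fell by 1.82 ± 0.31 in leukemia against preleukemia (limma, adjusted p = 0.0109). That call was lost without preleukemia library 1 (adjusted p = 0.0701), without preleukemia library 2 (adjusted p = 0.0722) and when every gene with a read was tested (adjusted p = 0.0534). The difference of preleukemia from mock, -0.54 ± 0.31 with a 95% interval of -1.27 to 0.20, did not pass (limma, adjusted p = 0.259). Meis1 lies at chr11:18879817-19018985 on the minus strand and overlaps the antisense models Gm16140 and Gm16141, whose reads cannot be told apart from its own.

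Against mock, Pbx2 rose and Pbx3 fell. Pbx2, a widely expressed Hox partner, had the highest level of the 9 genes in every group, at 19.2 and 21.4 RPKM in leukemia, 24.2 and 29.997 RPKM in preleukemia and 13.6 and 11.5 RPKM in mock. Every library with Evi1 was above both mock libraries. Pbx2 rose by 1.05 ± 0.14 in preleukemia against mock (limma, adjusted p = 0.00495) and by 0.66 ± 0.14 in leukemia against mock (limma, adjusted p = 0.0178), ratios of 2.17 and 1.63 in mean RPKM. The leukemia rise did not pass without leukemia library 1 (0.74, adjusted p = 0.0651) or library 2 (0.59, adjusted p = 0.117). Leukemia and preleukemia differed by -0.39 ± 0.14, with a 95% interval of -0.73 to -0.05, which did not pass (limma, adjusted p = 0.106). The model of Pbx2 (chr17:34591266-34597400, plus strand) overlaps Gpsm3 on the same strand.

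Pbx3, the Pbx protein that works with Hoxa9 and Meis1 in human and mouse leukemia cells, was at 0.0390 and 0.0750 RPKM in leukemia, 0.203 and 0.121 RPKM in preleukemia and 0.909 and 1.11 RPKM in mock. The libraries held 5 and 9 reads in leukemia, 21 and 16 in preleukemia and 120 and 137 in mock, and no group overlapped another. Preleukemia was already 6.23 times lower than mock by mean RPKM, and leukemia was 17.7 times lower. At the filter of 0.1 RPKM, Pbx3 fell by 0.93 ± 0.10 in leukemia against mock (limma, adjusted p = 0.00300) and by 0.79 ± 0.10 in preleukemia against mock (limma, adjusted p = 0.00708). That preleukemia call was lost without preleukemia library 2 (adjusted p = 0.0714). Leukemia and preleukemia differed by -0.14 ± 0.10, which did not pass (limma, adjusted p = 0.441). An antisense model, C79798, overlaps Pbx3 (chr2:34171457-34373142, minus strand).

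Set in order of their mean level in mock, Pbx2 came first at 12.5 ± 1.49 RPKM (SD, n = 2). Hoxa7 at 6.69 ± 1.87, Hoxa9 at 6.63 ± 1.14 and Meis1 at 6.39 ± 1.39 RPKM followed, and their libraries overlapped. Hoxb4 at 2.63 ± 0.36 and Pbx3 at 1.01 ± 0.14 RPKM stood apart from their neighbours in that order. Hoxa5, Hoxa3 and Hoxa10 came last and overlapped one another. In leukemia only Pbx2 at 20.3 ± 1.56 and Hoxb4 at 1.54 ± 0.35 RPKM were above 1 RPKM in both libraries, among the 9 genes.

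In leukemia against mock, 4 of the 5 members that could be tested at 1 RPKM passed, 1 of them higher (Pbx2) and 3 lower (Hoxa7, Hoxa9, Meis1). Over all 10958 genes tested 25.6% passed, 12.1% higher and 13.5% lower. In leukemia against preleukemia 4 of 5 passed, all lower (Hoxa7, Hoxa9, Hoxb4, Meis1), where 18.3% of all genes passed, 5.27% higher and 13.0% lower. In preleukemia against mock 4 of 5 passed, 2 higher (Hoxb4, Pbx2) and 2 lower (Hoxa7, Hoxa9), where 19.5% of all genes passed, 13.5% higher and 6.02% lower. That last count was 2 without preleukemia library 1 and 2 without preleukemia library 2. The median log2 difference of the 5 members was -2.36, -1.82 and -0.54 in these 3 comparisons, beside -0.04, -0.09 and 0.05 over all genes. Among the genes that passed, 28.8% were higher in leukemia against preleukemia, but 46.2% after a trimmed-mean scaling and 50.8% after quantile normalization, which put the median of all genes at 0.01 and 0.03. In preleukemia against mock 69.2% were higher, but 57.7% and 52.9% after those scalings. The directions of the 9 members held under both scalings.

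At 0.1 RPKM all 9 members could be tested. Of these, 8 passed in leukemia against mock, 1 higher and 7 lower, where 20.3% of all 14462 genes passed, 9.23% higher and 11.1% lower. In leukemia against preleukemia 5 passed, all lower, where 13.5% of all genes passed, 3.93% higher and 9.60% lower. There were 6 that passed in preleukemia against mock, 2 higher and 4 lower, where 14.4% of all genes passed, 9.60% higher and 4.81% lower.

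**Figure D3:**
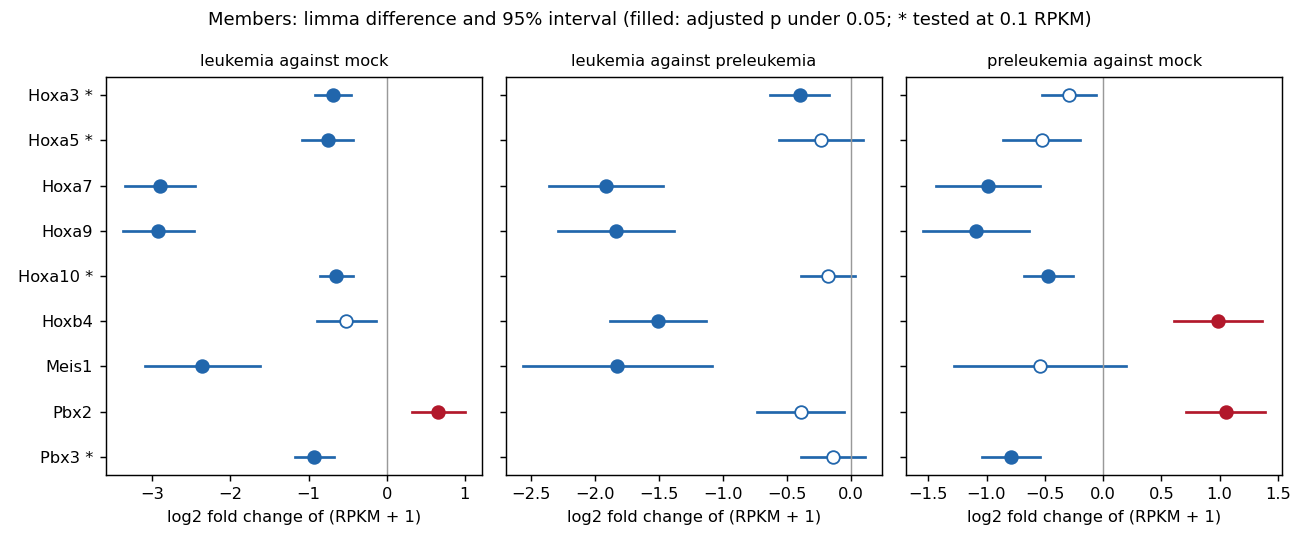
Difference in log2(RPKM + 1) with its 95% interval for the 9 genes in 3 comparisons (panels), blue below 0 and red above; filled points had an adjusted p under 0.05, and genes with an asterisk were tested at the filter of 0.1 RPKM. Hoxa7 and Hoxa9 lie near -2.9 in leukemia against mock, and Hoxb4 and Pbx2 lie to the right of 0 in preleukemia against mock.

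Among the other TALE genes, Tgif1, Tgif2 and Pknox1 each passed the test in at least 1 comparison. Tgif2, a TALE repressor, was at 4.55 and 2.999 RPKM in leukemia, 1.81 and 1.63 RPKM in preleukemia and 6.57 and 10.4 RPKM in mock. Both preleukemia values lay below both leukemia values, and those lay below both mock values. Tgif2 fell by 0.98 ± 0.24 in leukemia against mock (limma, adjusted p = 0.0268) and by 1.77 ± 0.24 in preleukemia against mock (limma, adjusted p = 0.00495). Its paralogue Tgif1 was at 19.96 and 18.5 RPKM in leukemia, 8.88 and 8.13 RPKM in preleukemia and 14.2 and 26.3 RPKM in mock. The preleukemia libraries were below all others, and the leukemia values fell between the 2 mock values. Tgif1 rose by 1.09 ± 0.25 in leukemia against preleukemia (limma, adjusted p = 0.0293) and fell by 1.10 ± 0.25 in preleukemia against mock (limma, adjusted p = 0.0273). Pknox1, a Pbx partner related to Meis1, was at 6.37 and 7.18 RPKM in leukemia, 6.34 and 6.96 RPKM in preleukemia and 5.11 and 3.67 RPKM in mock, a rise of 0.54 ± 0.16 in leukemia against mock (limma, adjusted p = 0.0495). With 1 library left out, the call of Tgif2 in preleukemia against mock held each time. That of Tgif2 in leukemia against mock was lost without mock library 2, either preleukemia library or leukemia library 2, with adjusted p up to 0.158. Both calls of Tgif1 were lost without any 1 leukemia or preleukemia library, with adjusted p up to 0.165. That of Pknox1 held only without mock library 1, and its adjusted p was 0.0908 to 0.245 without any 1 of the others. It was also lost at a pseudocount of 0.1, the lower filters, with no mean trend, in a fit of 4 libraries and with the replicate block, with adjusted p of 0.0506 to 0.107. The fit of every gene with a read ended both calls of Tgif1 and the leukemia call of Tgif2, and the fit of 4 libraries ended those of Tgif1 in preleukemia against mock and Tgif2 in leukemia against mock, with adjusted p of 0.0544 to 0.0946. Tgif1 in leukemia against mock, which did not pass over all 6 libraries (-0.01 ± 0.25, limma, adjusted p = 0.982), was -0.43 without mock library 1 (limma, adjusted p = 0.0262) and 0.41 without mock library 2 (limma, adjusted p = 0.0357). Meis2 and Meis3 were under 0.02 RPKM in every library.

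Of 22 chromatin genes and other regulators that keep Hox loci active, 19 were tested, and Cdx1, Cdx2 and Cdx4, homeobox activators of Hox genes, were at or near 0. In leukemia against mock 1 rose (Ash1l) and 2 fell (Mllt6, Mllt3), in leukemia against preleukemia 1 rose (Ash1l), and in preleukemia against mock 2 fell (Mllt6, Kat7). Over all tested genes 25.6%, 18.3% and 19.5% were called in these 3 comparisons. The histone methyltransferase gene Kmt2a, which maintains Hoxa expression, was at 23.6 and 23.1 RPKM in leukemia, 18.6 and 19.9 RPKM in preleukemia and 22.4 and 19.1 RPKM in mock. Mllt3, a component of the elongation complex, was at 0.452 and 0.691 RPKM in leukemia, 1.43 and 1.10 RPKM in preleukemia and 1.74 and 1.52 RPKM in mock, a fall of 0.75 ± 0.16 in leukemia against mock (limma, adjusted p = 0.0195). The list's median log2 difference was -0.24, -0.08 and -0.10, beside -0.04, -0.09 and 0.05 over all genes. These counts depended on single libraries. The count in leukemia against mock was 11 without mock library 1 and 6 without mock library 2. In leukemia against preleukemia it was 6 without either mock library and 0 without any 1 of the other 4. Its value in preleukemia against mock was 8 without mock library 1, 0 without preleukemia library 2 and 1 without any 1 of the other 4.

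Genes reported as targets of Hoxa9 or Meis1 did not move one way. Of 18 listed, 17 were tested. In leukemia against mock 5 rose (Erg, Lmo2, Sox4, Bcl2, Igf1r) and 3 fell (Pf4, Trib2, Flt3). In leukemia against preleukemia 4 rose (Bcl2, Sox4, Erg, Cd34) and 3 fell (Pf4, Hif1a, Ccnd3). In preleukemia against mock 4 rose (Pf4, Igf1r, Lmo2, Erg) and 4 fell (Bcl2, Trib2, Flt3, Cd34). Of all tested genes 12.1% rose and 13.5% fell in leukemia against mock, 5.27% rose and 13.0% fell in leukemia against preleukemia, and 13.5% rose and 6.02% fell in preleukemia against mock. With 1 library left out the count in leukemia against mock was 6 to 9. In leukemia against preleukemia it was 2 to 8, with 2 without preleukemia library 2 and 4 without leukemia library 1. In preleukemia against mock it was 2 to 9, with 2 without preleukemia library 2 and 5 without preleukemia library 1.

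Trib2, a pseudokinase gene downstream of Meis1, was at 0 and 0 RPKM in leukemia, 0.937 and 0.377 RPKM in preleukemia and 8.04 and 4.09 RPKM in mock. Leukemia was at least 171-fold lower than mock, and the groups did not overlap. Flt3, a receptor tyrosine kinase of progenitors, was at 1.63 and 4.19 RPKM in leukemia, 3.66 and 3.13 RPKM in preleukemia and 14.7 and 18.6 RPKM in mock. Both Evi1 groups were below mock but overlapped each other. Sox4, a transcription factor of progenitors, was at 111 and 91.4 RPKM in leukemia, 40.1 and 32.0 RPKM in preleukemia and 49.3 and 34.4 RPKM in mock, with both leukemia libraries above all others. Bcl2, which blocks cell death, was at 37.4 and 32.7 RPKM in leukemia, 9.47 and 9.76 RPKM in preleukemia and 22.1 and 22.6 RPKM in mock, so that the 3 groups stood apart. Myb, needed for progenitor growth, did not pass in any comparison.

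**Figure D4:**
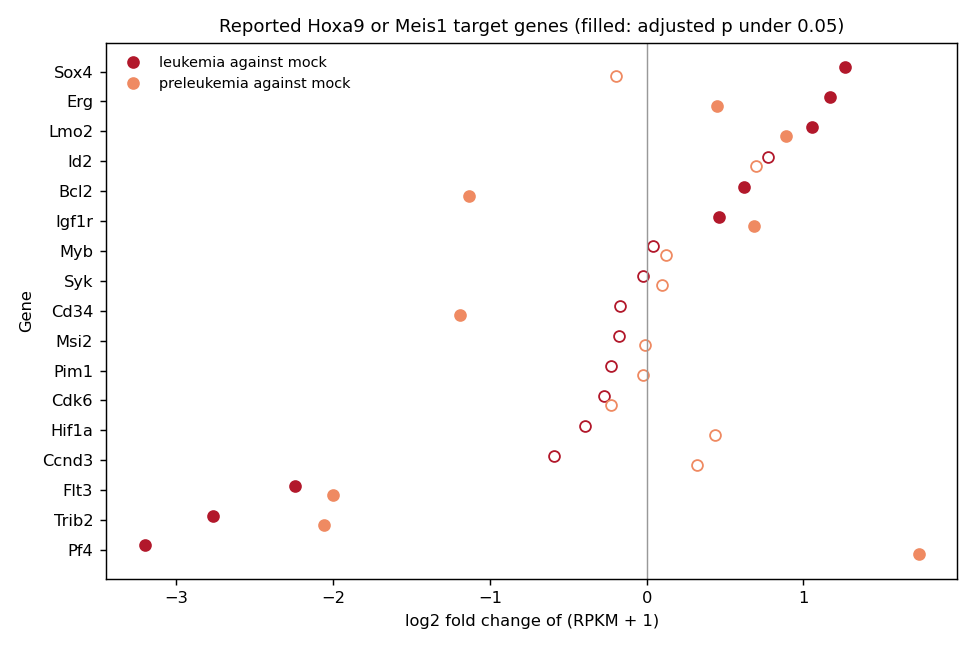
Difference in log2(RPKM + 1) for the 17 tested target genes in leukemia against mock (red) and preleukemia against mock (orange), in order of the difference of leukemia from mock; filled points had an adjusted p under 0.05. The 2 comparisons share the mock libraries. Sox4, Erg and Lmo2 lie above 1 in leukemia against mock, and Pf4, Trib2 and Flt3 lie below -2.

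Meis1 parted the 2 leukemia libraries, as did some genes of megakaryocytes and red cells. Pf4, a platelet chemokine, had 0 reads in leukemia library 1 and 6 in library 2. Level in library 2 was 3.11 times that in library 1 for Gata1, 4.49 times for Epor, 6.26 times for Car1 and 3.38 times for Itga2b. Kit was at 0.9505 times and Hoxb4 at 0.720 times. Hlf, a stem cell transcription factor, was at 0 in both. Each leukemia value of Gata1, Epor, Car1 and Itga2b stayed below both mock libraries. Summed over 8 stem and progenitor markers the level was 91.4 and 87.1 RPKM in leukemia. In preleukemia it was 144 and 137 RPKM and in mock 130 and 111 RPKM. Kit and Cd48 made up most of that sum in every library. B lymphoid markers, 5 in the table, summed to 0.271 and 0.164 RPKM in leukemia, 3.49 and 5.86 RPKM in preleukemia and 29.9 and 30.2 RPKM in mock, with Pax5 at 0 in both leukemia libraries. The 7 T and NK markers summed to 0.137 to 0.673 RPKM over the 6 libraries. Cd3e, Cd3g, Ncr1 and Gzma were at 0 in both leukemia libraries. However, Cd3e was also at 0 in both mock libraries, and Cd3g and Ncr1 were at 0 in both preleukemia libraries. Cd8a had 5 and 3 reads in leukemia, 0 and 0 in preleukemia and 0 and 1 in mock.

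**Figure D5:**
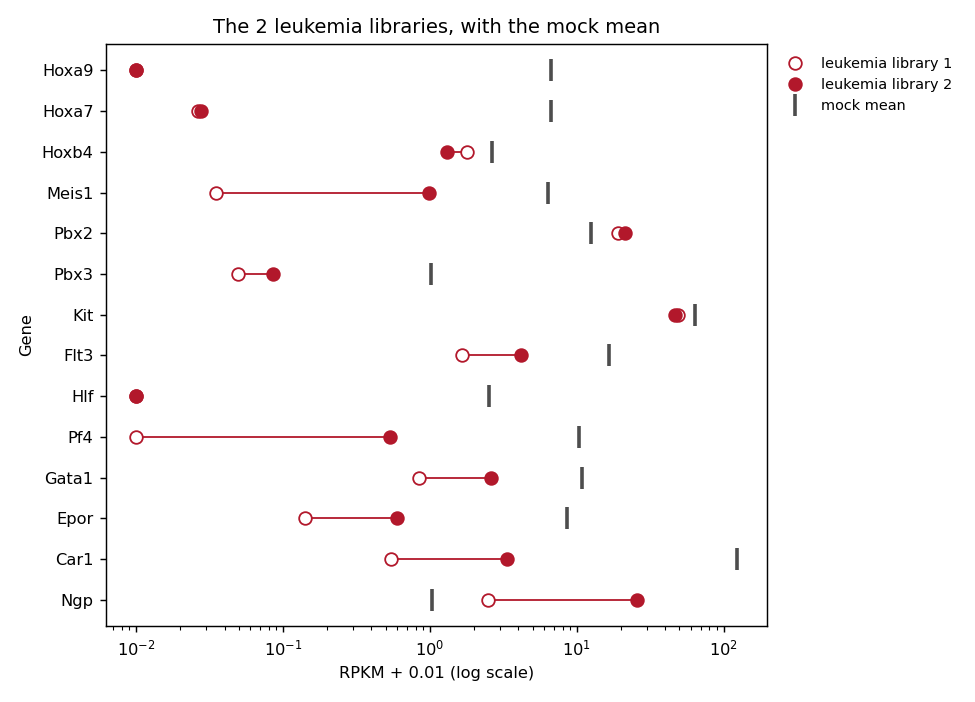
RPKM + 0.01 on a log axis (0 RPKM falls at 0.01) for members and lineage genes (rows) in leukemia library 1 (open circles) and library 2 (filled circles), with the mock mean as a bar. Meis1 is 39.1 times higher in library 2, while Hoxa9, Hoxa7 and Kit lie together.

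The genes whose profile over the 6 libraries lay nearest to 3 of the members were found by the root mean square distance between centred log2(RPKM + 1) values. Nearest to Hoxa9 were Anxa3, an annexin gene, at a distance of 0.142, Hoxa7 at 0.149 and Ppic, which encodes cyclophilin C, at 0.203. Nearest to Meis1 were Lphn2, an adhesion receptor gene, at 0.130, Sipa1l1 at 0.179 and Rnf125 at 0.192. Lphn2 was at 0.0453 and 0.606 RPKM in leukemia, 4.72 and 3.70 RPKM in preleukemia and 5.17 and 6.53 RPKM in mock, with the gap between the leukemia libraries seen for Meis1. Nearest to Pbx3 were Rap2a at 0.0597, 1700109H08Rik at 0.0689 and Gm12057 at 0.0700. A near profile on this scale need not have a like fold change. Anxa3 was at 3.46 and 4.43 RPKM in leukemia, where Hoxa9 and Ppic were at 0. Rap2a was at 1.90 and 2.17 RPKM in leukemia and 4.39 and 4.61 RPKM in mock, whereas Pbx3 was 17.7 times lower in leukemia than in mock by mean RPKM. Gm12057 was at 0.0940 and 0.226 RPKM in leukemia and 1.10 and 1.30 RPKM in mock.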

How the data were processed

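RNA was measured in 6 libraries (3 groups of 2). The authors deposited RPKM per gene, a unit inferred here from the values: 64.0% to 65.8% of low values, times a GENCODE M21 exon length, lay within 0.02 of whole reads. Per the submitters' processing notes, CASAVA 1.8.2 and the build GRCm38 were used, with roles not given. The aligner, counter and annotation: not given in the sources used here. The library kit, per the labels' protocols, was NEBNext Ultra, which by its name does not mark strand. Read numbers of a gene were recovered at the transcript length that made all 6 values whole.

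Groups were compared in R 4.3.3 with limma 3.58.1 (mean trend, all 6 libraries, two-sided, Benjamini-Hochberg over all tested genes, threshold 0.05) on log2(RPKM + 1), for genes at 1 RPKM or more in 2 libraries (10958). The fit had 3 residual and 3.70 prior degrees of freedom and was tested on simulated data. Members, gene lists and tests were chosen with earlier results of these data known. Named were all 9 members, up to 4 genes of each list with the smallest p among those that passed, other Hox, Meis or Pbx genes reaching 1 RPKM, and the 3 nearest profiles of Hoxa9, Meis1 and Pbx3. Other genes were named after their values were seen. Alternatives were other pseudocounts, filters, scalings, no mean trend, 4 libraries, the replicate number as a block, voom on recovered reads and each library left out. The test at 0.1 RPKM combined with the other alternatives was added after seeing the data. Counting intervals are exact at 95%, and they and the floor of 3 reads cover counting error only. Ebf1 and Hoxd4 were not analysed here, and some genes that these rules pick are not reported here.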

Additional observations from a re-analysis of the deposited data

How the results depend on the processing

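The count of members that passed stayed within 1.5 times under other pseudocounts, scalings, spread estimates and voom on recovered reads. In leukemia against mock it was 8 at the filter of 0.1 RPKM and 8 with every gene that had a read, because 4 more members could be tested. Leaving out 1 library gave 3 to 5 members in leukemia against mock, 3 to 4 in leukemia against preleukemia and 2 to 4 in preleukemia against mock, with the lone library assumed to vary like the other groups. Over all genes the counts were 2809, 2006 and 2140, and ranged from 1046 to 3848, from 430 to 3449 and from 520 to 3873. A fit of the 4 libraries compared gave 3428 genes in leukemia against preleukemia and 1374 in preleukemia against mock, and the test of every gene with a read gave 1302 in leukemia against preleukemia. The cause was not tested. Hoxb3 in leukemia against mock turned to 0.10 after quantile normalization. Tgif1 in leukemia against mock, -0.01 in the reported fit, was 0.0302 with TMM-like scaling, 0.03896 after quantile normalization and 0.039 with voom, and ran from -0.43 to 0.41 with a library left out; Pknox1 in leukemia against preleukemia, 0.02 over all libraries, ran from -0.052 to 0.10. Of the single tests of the members, Hoxb3, Pknox1, Tgif1 and Tgif2, 177 kept their direction and side of the threshold when a library was left out, 46 calls were lost, 7 gained and 4 directions turned; under the other settings 325 kept both, 18 calls were lost, 7 were gained and 4 directions turned.

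Replicate numbers were shared between groups. Deviations of same-numbered libraries correlated by 0.179 (leukemia and preleukemia), 0.0125 (leukemia and mock) and 0.116 (preleukemia and mock). Ltf and Ngp were higher in library 2 than in library 1 in all 3 groups. Other genes were not: Gata1 was higher in library 2 in leukemia but lower in preleukemia and mock. Whether same-numbered libraries share more than a number is therefore not settled. With the replicate number as a block 4 members passed in each comparison, and 2932, 2060 and 2118 of all genes. At the filter of 0.1 RPKM the block ended the call of Hoxa3 in leukemia against preleukemia (adjusted p = 0.0649). At these depths a gene with no read in a leukemia library is not shown to be absent.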

Other observations

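Hoxa7 and Hoxa9 belonged to a small group of genes that were well expressed in mock and nearly silent in leukemia, chosen after the values were seen. Of 6668 genes at 5 RPKM or more in both mock libraries, 10 were under 0.1 RPKM in both leukemia libraries. Beside Hoxa7 and Hoxa9 these were Dntt, Gpr128, Pdgfrb, Ppic, Prss34, Samd14, Slc22a3 and Slc45a3. Hoxa9 and Ppic were the 2 of the 10 at 0 in both leukemia libraries. Dntt, the DNA polymerase of lymphoid progenitors, was at 0 and 0.0239 RPKM in leukemia, 2.42 and 2.997 RPKM in preleukemia and 19.98 and 11.98 RPKM in mock. Prss34, a mast cell and basophil protease, was at 0 and 0.0419 RPKM in leukemia, 0.0486 and 0 RPKM in preleukemia and 11.1 and 16.0 RPKM in mock. Preleukemia values of the 10 genes thus ran from near 0 (Prss34) to 6.50 and 4.59 RPKM (Slc22a3, an organic cation transporter).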
